A study of Homo sapiens with 22 samples.

Results

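The metallothioneins described here were the 6 genes MT2A, MT1E, MT1F, MT1G, MT1M and MT1X, taken by symbol from the gene tables of 3 single-cell RNA-seq experiments. All 6 symbols were found once, among 33538 genes in the first experiment and among 36601 genes in each of the other experiments. The study asked how melanoma cells keep or leave a primed state, in which they are more likely to become resistant to targeted therapy. The first experiment held 12531 untreated WM989 cells, 11870 of them with a lineage barcode count above 0 in the authors' metadata, from 8 wells in replicates r1 and r2, and a second held 1449 untreated WM983B cells in 1 library. The third, called the treatment experiment below, held 40021 WM989 cells, grown from cells given lineage barcodes, in 8 libraries, with replicates r1 and r2 of untreated control, TGFB1, TGFBRi and PI3Ki. The sample labels call the replicates of each treatment Mix and Primed, and which of these is r1 was not settled. The barcode count is above the number of barcoded cells that the study states, and the filter behind the latter is not known here. The cultures of the first experiment had been sorted as EGFR/NGFR-high or as mixed cells, expanded, and each loaded over 2 wells, and the cell labels do not say which wells held which sort. ATAC-seq was done on untreated WM989 cells in 4 sorts of 3 libraries each, named Mix, EGFR-high, NGFR-high and, for cells high in both, EGFR/NGFR-high. The study describes the remaining sort as negative for both markers. Mix is taken here to be that sort, which the labels do not say.

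WM989 and WM983B are BRAF-mutant human melanoma cell lines, and both were grown from single-cell clones, so that each stands for 1 clonal line. TGFB1 is the transforming growth factor ligand, TGFBRi is LY2109761, which inhibits its receptors, and PI3Ki is GDC-0941, an inhibitor of phosphoinositide 3-kinase. The authors labelled every cell as primed or drug-susceptible from clusters of the same RNA counts. Differences of members between states or clusters are therefore given as descriptions, with no test. The first experiment held 2843 primed cells, WM983B 731 and the treatment experiment 4077. Levels are CPM, the unique molecular identifiers (UMIs) of a gene per 1000000 UMIs of the same cells. Since 3′ ends were counted, these levels do not depend on gene length in the way full-length reads do.

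Total counts were 750662838 UMIs in the first experiment, 102738398 in WM983B and 685641196 in the treatment experiment. The median cell held 53571, 66668 and 16321 UMIs in that order, and treatment libraries held between 70239657 and 122420544 UMIs. The 4 primed markers EGFR, AXL, NGFR and NT5E were higher in primed cells in all 3 experiments, with summed levels of 316, 221 and 191 CPM against 29.3, 79.6 and 22.1 CPM. The 6 melanocytic markers were lower in primed cells throughout, with 202, 745 and 620 CPM against 4880, 2046 and 4779 CPM. Of 6 markers of other cell types, PECAM1 alone passed 1 CPM in a state. Their sum was 22.8 CPM in primed and 0.265 in drug-susceptible cells of the first experiment, 9.60 and 0.245 in the treatment experiment, and 0.532 and 0.427 in WM983B. KRT5 was at 0 in the first experiment. Cell barcodes shared between libraries marked 38 cells (0.303%) of the first and 388 cells (0.969%) of the treatment experiment.

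Metallothioneins are small, cysteine-rich proteins that bind zinc and copper and buffer them inside the cell, and they also bind toxic metals such as cadmium. Their genes respond to metals through the transcription factor MTF1, which binds metal response elements in their promoters, and many also respond to glucocorticoids and to stress. MT2A is the form that is widely expressed in human tissues, and the MT1 genes are close copies of it.

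The 6 genes lay within 75.6 kb on chromosome 16 (hg38). MT2A lay at chr16:56608584-56609497, MT1E at chr16:56625475-56627112, MT1M at chr16:56632659-56633981 and MT1F at chr16:56657731-56660698, all on the plus strand. MT1G lay at chr16:56666730-56668065 on the minus strand, and MT1X at chr16:56682470-56684196 on the plus strand. All 6 were annotated as protein coding. MT1X overlapped the annotated gene ENSG00000259827, and the others overlapped none. The sequences are close copies, so that reads shared between paralogs may have been dropped or split by the authors' counting, and the levels of MT1 genes are uncertain to that extent.

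Promoters of MT2A and MT1X, the members with the highest levels, were taken from RefSeq (GRCh38.p14), from 250 bases before to 50 bases after the start. They are shown because these members were matched in the promoter table, and both genes had an accessible start in every ATAC library. Capitals mark the cores TGCACNC and TGCGCNC of the metal response element and the AP-1 motif TGACTCA, searched on both strands. MT1E, MT1F, MT1G and MT1M were not matched in the promoter table.

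MT2A promoter: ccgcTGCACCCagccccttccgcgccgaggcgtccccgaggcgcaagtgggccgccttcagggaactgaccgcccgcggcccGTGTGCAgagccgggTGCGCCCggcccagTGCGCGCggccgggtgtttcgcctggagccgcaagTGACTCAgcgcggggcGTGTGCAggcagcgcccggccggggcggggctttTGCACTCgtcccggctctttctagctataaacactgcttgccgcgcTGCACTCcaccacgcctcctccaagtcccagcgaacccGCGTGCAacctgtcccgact
MT1X promoter: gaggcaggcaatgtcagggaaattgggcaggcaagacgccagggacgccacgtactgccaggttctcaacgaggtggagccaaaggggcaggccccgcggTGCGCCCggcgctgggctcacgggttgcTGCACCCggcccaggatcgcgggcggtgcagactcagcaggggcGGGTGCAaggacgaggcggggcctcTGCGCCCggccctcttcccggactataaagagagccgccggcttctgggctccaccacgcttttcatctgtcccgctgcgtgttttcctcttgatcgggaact

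The MT2A window, chr16:56608334-56608633 on the plus strand, held 6 matches to TGCACNC and 2 to TGCGCNC. The MT1X window, chr16:56682220-56682519 on the plus strand, held 2 of each. None of the matches overlapped another. At least 8 cores, as in MT2A, were found in 7 of 35116 promoters of the same length (0.0199%), and at least 4, as in MT1X, in 211 (0.601%). By comparison, 12.1% of all promoters held TGCACNC, and 7012 of the 35116 held TGCGCNC. The AP-1 motif matched 1 time in MT2A, not in MT1X, and in 4.95% of all promoters. TATAAA, left in lower case, matched 1 time in each and in 11.5% of all promoters. These matches describe letters in the window and were not tested as binding sites.

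In WM989 cells of the first experiment, MT2A was the dominant metallothionein and was among the most abundant transcripts of primed cells. Its level was 6104 CPM in primed cells against 534 CPM in drug-susceptible ones, a ratio of 11.4 (counting interval 11.4 to 11.5). By level it ranked 17 in primed and 220 in drug-susceptible cells among 33538 genes. MT2A held 96.0% of the UMIs of the 6 members in primed cells and 89.7% in drug-susceptible cells. All intervals of levels and ratios are 95% intervals for counting error only, without the spread between wells.

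Primed cells had the higher MT2A level in all 8 wells, and replicates differed in both states. In wells 1 to 4 (r1), MT2A stood at 4038, 3869, 3381 and 3279 CPM in primed cells and at 518, 580, 434 and 401 CPM in drug-susceptible cells. In wells 5 to 8 (r2), it stood at 9387, 8521, 6147 and 7237 CPM in primed cells and at 821, 701, 632 and 732 CPM in drug-susceptible cells. Every well of r2 thus lay above every well of r1 in both states. The ratio of primed to drug-susceptible cells lay between 6.67 and 12.2 over the 8 wells, with a median of 8.96 and an SD of 1.92. Primed cells were 56.9%, 62.4%, 7.87% and 6.85% of wells 1 to 4 and 79.7%, 76.9%, 9.17% and 9.42% of wells 5 to 8. In both replicates the pair of wells with the larger primed share also had the higher MT2A in primed cells. Since each culture was loaded over 2 wells, wells are not independent cultures, and the part of the sort in these values was not tested.

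MT1X and MT1F, further isoforms of the MT1 group, were also higher in primed cells of every well, at lower levels than MT2A. MT1X was at 54.4 CPM in drug-susceptible and 224 CPM in primed cells (ratio 4.12, interval 4.06 to 4.18), and MT1F at 6.20 and 27.5 CPM (4.44, 4.26 to 4.64). MT1X in primed cells lay between 108 and 167 CPM in r1 and between 206 and 326 CPM in r2, and in drug-susceptible cells between 37.9 and 49.9 CPM and between 71.2 and 88.4 CPM. As with MT2A, the wells of r1 and r2 did not overlap. MT1F ran the other way in primed cells, with 28.2 to 31.5 CPM in r1 and 20.5 to 27.8 CPM in r2, again without overlap. In drug-susceptible cells the MT1F wells overlapped, with 5.90 to 9.50 CPM in r1 and 4.75 to 7.18 CPM in r2. Over wells, the primed to drug-susceptible ratio lay between 2.85 and 4.04 for MT1X and between 2.99 and 5.16 for MT1F.

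**Figure D1:**
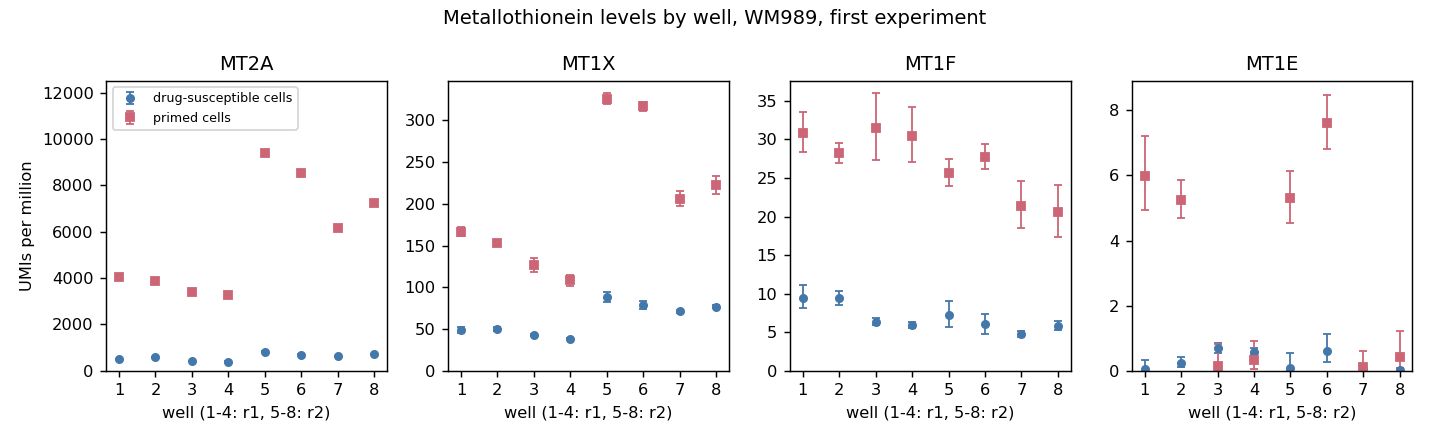
Level of MT2A, MT1X, MT1F and MT1E in CPM (vertical axes, linear, a different scale in each panel) in the 8 wells of the first experiment, for drug-susceptible cells (circles) and primed cells (squares). Bars are 95% counting intervals. MT2A in primed cells was between 3279 and 9387 CPM and above drug-susceptible cells in each well, while MT1E in primed cells was above 5 CPM in wells 1, 2, 5 and 6 and under 0.5 CPM in the other 4.

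MT1E, another MT1 isoform, was rare in WM989 and was held by few cells. It had 1173 UMIs in 431 of 12531 cells (3.44%). The number of UMIs per cell ran up to 28, and 63 cells held as much as 50% of all MT1E UMIs. Cells with at least 5 MT1E UMIs numbered 67, of which 65 were primed, and these 67 cells held 51.7% of the MT1E UMIs. The 65 primed cells came from wells 1, 2, 5 and 6, with 10, 20, 12 and 23 cells, and 53 of them were in cluster 2. These 4 wells are the ones in which primed cells were 56.9% to 79.7% of all cells, against 6.85% to 9.42% in the others, and the part of the sort in the MT1E levels was not tested. In primed cells the level was 5.99, 5.26, 0.148 and 0.317 CPM in wells 1 to 4 and 5.30, 7.62, 0.112 and 0.416 CPM in wells 5 to 8. In wells 3, 4, 7 and 8 those levels rested on 1, 3, 1 and 3 UMIs. In drug-susceptible cells the same 8 wells held 1, 11, 79, 98, 1, 9, 5 and 2 MT1E UMIs. Pooled over wells, MT1E was at 5.03 CPM in primed cells against 0.369 CPM in drug-susceptible ones, a ratio of 13.6 (interval 11.7 to 15.9) that not all wells shared. Over wells the ratio lay between 0.213 and 104, with a median of 14.8. It was lowest in well 3, where drug-susceptible cells had the higher level, 0.694 CPM. They also had the higher level in well 4.

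In primed cells of the first experiment MT2A and MT1X had no single order by MT1E count, unlike in WM983B below. The 65 primed cells with at least 5 MT1E UMIs had 7814 CPM of MT2A and 318 CPM of MT1X. The 210 with 1 to 4 MT1E UMIs had 5899 and 211 CPM, below the 6058 and 222 CPM of the 2568 primed cells with none. Median depth was 97133, 74908 and 56036 UMIs in that order. The 65 cells came from the wells whose primed cells had the higher MT2A within each replicate, and the parts of well and depth in these values were not tested. In drug-susceptible cells with no, 1 to 4 and at least 5 MT1E UMIs, MT2A was at 531, 672 and 1864 CPM. MT1X was at 54.3, 55.3 and 73.1 CPM there, and the last group held only 2 cells. MT1M and MT1G were close to absent, with 67 and 51 UMIs in the whole experiment and never more than 1 UMI in a cell. MT1M had 49 UMIs in drug-susceptible and 18 in primed cells, and MT1G had 13 and 38.

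**Figure D2:**
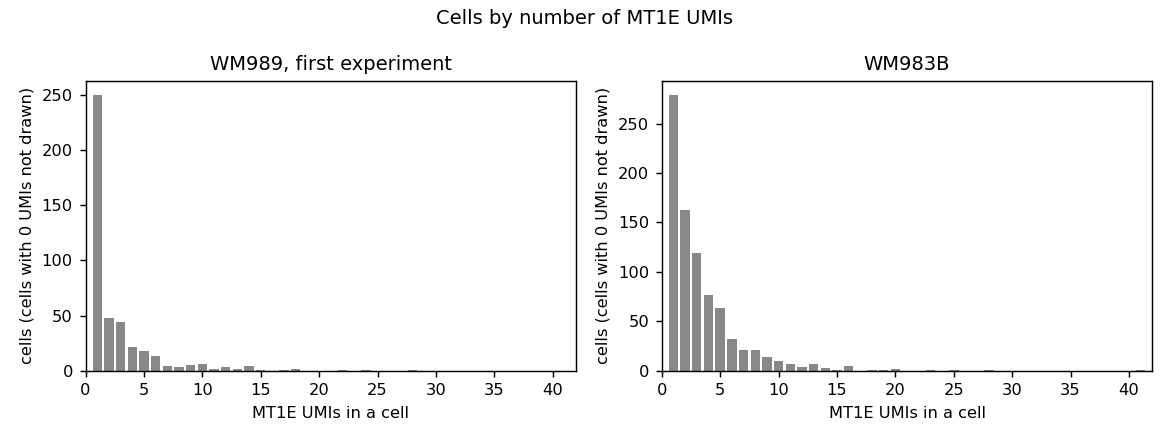
Number of cells (vertical axes) by MT1E UMIs in the cell (horizontal axes) in the first WM989 experiment and in WM983B, with cells of 0 UMIs not drawn. In WM989 the 431 cells with a UMI ran up to 28 UMIs and 67 had at least 5, while in WM983B 834 cells had a UMI and 196 had at least 5, up to 41.

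Within states, MT2A varied widely from cell to cell. With each cell thinned to 10000 UMIs, the median primed cell held 41 MT2A UMIs, with 8 and 140 at the 5th and 95th percentiles, and the median drug-susceptible cell held 4, with 0 and 15. The variance over the mean was 35.4 in primed and 7.23 in drug-susceptible cells, at means of 53.3 and 5.26 UMIs. At the same relative spread this measure grows with the mean, so it does not rank the states by relative spread. These values pool r1 and r2, with 3810 and 8506 CPM of MT2A in primed cells, so they also hold the difference between replicates. A UMI in a cell can also come from free RNA, whose part was not tested, since no cell type here is known to lack these genes. Across primed cells, thinned MT2A and MT1X counts had a Pearson correlation of 0.411 in r1 (1704 cells) and 0.405 in r2 (1139 cells). For MT2A with MT1F it was 0.0679 and 0.105, and for MT2A with MT1E 0.0154 and 0.0666. In drug-susceptible cells MT2A with MT1X had 0.129 and 0.174 (5886 and 3802 cells), and in WM983B primed cells 0.110 (731 cells). Thinned primed cells of the first experiment held means of 2.02 MT1X, 0.275 MT1F and 0.0440 MT1E UMIs. Drug-susceptible ones held a mean of 0.546 MT1X UMIs. Counting error at such low counts lowers a correlation, so the low values do not show that these genes varied apart from MT2A. These are descriptions over cells that share a library.

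All 3 primed clusters lay above all 8 drug-susceptible clusters for MT2A, MT1X, MT1F and MT1E. In clusters 2, 8 and 9, MT2A was at 6131, 4097 and 7323 CPM, and in the drug-susceptible clusters it was between 395 and 596 CPM. MT1X followed another order, with 262, 167 and 172 CPM against 36.5 to 61.7 CPM. MT1F was at 30.1, 24.8 and 23.3 CPM against 3.85 to 9.43 CPM. MT1E was at 6.81, 1.64 and 3.07 CPM against 0.237 to 1.37 CPM. The highest MT2A was thus in cluster 9 and the highest MT1X, MT1F and MT1E in cluster 2, and this held within r1 and within r2, as did the place of all primed clusters above all drug-susceptible ones. In r1, MT2A was at 3882, 2892 and 4453 CPM in clusters 2, 8 and 9, and in r2 at 8642, 5939 and 9358 CPM. For MT1X, cluster 8 was above cluster 9 in both replicates, with 130 against 105 CPM in r1 and 222 against 220 CPM in r2, although the pooled level was higher in cluster 9.

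By cell cycle phase, as the authors called it per cell, MT2A and the MT1 genes had different orders. In primed cells of the first experiment, pooled over r1 and r2 whose levels differed, MT2A was at 5923 CPM in G1, 6614 in S and 6505 in G2M. MT1X was at 248, 204 and 142 CPM and MT1F at 29.1, 29.9 and 19.7 CPM, so that both were lowest in G2M. In drug-susceptible cells MT2A was at 442, 535 and 600 CPM. In the treatment experiment MT2A of drug-susceptible cells was higher in G2M than in G1 in all 8 libraries, with pooled levels of 1269, 1400 and 1576 CPM. In its primed cells MT2A was highest in G2M in every library except PI3Ki r2, unlike the pooled order of the first experiment. Untreated r1 and r2 had 4419 and 4810 CPM in G1, 4109 and 4140 in S and 6534 and 6538 in G2M. Some of these levels rest on few cells, such as 14 in S of untreated r1.

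Genes with the cluster pattern closest to MT2A were found by Pearson correlation of log2(CPM + 1) over the authors' clusters, a description over few points that share libraries and cells. Over 11 clusters and 7020 genes of the first experiment these were TAGLN2 (0.996), PLP2 (0.995), RAB31 (0.994), CDH13 (0.994) and GLIPR1 (0.994). MT1X ranked 233 (0.964) and MT1F 418 (0.940). Over 13 clusters and 6912 genes of the treatment experiment they were SIGIRR (0.956), TMEM158 (0.946), LMO4 (0.943), C16orf95 (0.938) and CDKN1A (0.934). There MT1X ranked 20 (0.919) and MT1F 126 (0.874).

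Genes of metal handling and of pathways that act on metallothionein promoters are given here beside all genes, as a description of the states. In the first experiment 6316 genes reached 20 CPM in either state, of which 654 had a primed to drug-susceptible ratio above 2 and 414 a ratio under 0.5. A gene that reached 20 CPM only in the state where it was higher is favoured towards such a ratio, as MT1F was, so no count over members is read from it. Of 12 zinc genes at this level the median ratio was 1.19. SLC39A13, a zinc transporter of the ZIP family, had a ratio of 2.16 and SLC39A11, of the same family, 0.313, and each reached 20 CPM in 1 state alone. Of 6 copper genes the median ratio was 0.905, with ATOX1, a copper chaperone, at 399 against 1832 CPM.

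The 6 measured genes of metal and proteotoxic stress had a median ratio of 1.47. HSPH1, a chaperone (1.98), TXNRD1, a thioredoxin reductase (1.97), and GCLM, which makes glutathione (1.89), were higher in primed cells, HSPA1A was at 1.04, and DNAJB1 (0.753) and HMOX1, which breaks down heme (0.489), were lower. Of 3 measured glucocorticoid targets KLF9 was at 1.71, TSC22D3 at 1.25 and SGK1 at 0.273. Of the STAT3 list, JUNB, at 156 against 34.3 CPM, and STAT3 itself, at 34.8 against 27.1 CPM, reached 20 CPM in both states. IL6ST, the shared receptor subunit of the IL-6 family (152 against 17.3 CPM), OSMR (43.8 against 9.30 CPM), BCL3 (26.1 against 3.54 CPM) and LIF (20.4 against 0.836 CPM) reached it in primed cells alone.

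WM983B had more MT1E and a smaller difference between states than WM989. MT2A was at 1994 CPM in primed cells against 948 CPM in drug-susceptible ones (interval of the ratio 2.08 to 2.13) and ranked 55 and 140 among 36601 genes. MT1E was at 37.0 and 19.6 CPM (1.74 to 2.03), MT1F at 22.0 and 14.7 CPM (1.37 to 1.64) and MT1X at 44.6 and 36.7 CPM (1.14 to 1.29). In this line 834 of 1449 cells (57.6%) held an MT1E UMI. Within both states MT2A and MT1X were higher in cells with more MT1E UMIs. In primed cells with no, 1 to 4 and at least 5 of them, MT2A was at 1852, 1910 and 2462 CPM. It was at 753, 1048 and 1335 CPM in drug-susceptible cells. MT1X was at 37.4, 41.0 and 66.9 CPM and at 31.6, 37.9 and 52.5 CPM. Median depth rose too, from 61253 to 69252 and from 67959 to 88481 UMIs, and its part was not tested. The lines were profiled in separate experiments with 1 WM983B library, so that line and library cannot be told apart. The MT2A ratio was above 2, as was that of 89 of the 6856 genes at 20 CPM or more in either state.

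The drug-susceptible clusters of WM983B were not alike. Cluster 1 had 801 CPM of MT2A and cluster 3, with 90 cells, had 1862 CPM, close to the 1872 CPM of primed cluster 0. Primed cluster 2 had 2800 CPM. MT1E followed the same split, with 16.9 CPM in cluster 1, 36.5 in cluster 3, 37.1 in cluster 0 and 36.0 in cluster 2. Without cluster 3 the MT2A ratio was 2.49. With each cell thinned to 30000 UMIs, the median cell held 39 MT2A UMIs in primed and 21 in drug-susceptible cells. MT1M and MT1G held 29 and 5 UMIs in all.

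In the treatment experiment the order of the states was the same as in the first experiment. MT2A was at 6533 CPM in primed cells against 1410 CPM in drug-susceptible ones (ratio 4.63) and ranked 13 and 112 among 36601 genes. MT1X was at 313 and 81.7 CPM (3.83) and MT1F at 41.7 and 7.88 CPM (5.29). These levels pool the treatments, and 1577 and 1757 of the 4077 primed cells came from the TGFB1 libraries. Within libraries the ratio ran from 2.20 to 5.04 for MT2A, from 1.61 to 4.82 for MT1X and from 2.51 to 5.62 for MT1F, and in untreated r1 and r2 it was 3.75 and 4.80 for MT2A and 2.14 and 3.15 for MT1X. MT1E held 48 UMIs in primed and 106 in drug-susceptible cells, and no cell held more than 3. Both primed clusters, 4 and 10, had more MT2A (6905 and 5025 CPM) than any of the 11 drug-susceptible clusters (761 to 1976 CPM).

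Treatment was compared with untreated cells on counts summed over each library, with edgeR's quasi-likelihood test across all genes and replicate as a block. The 3 treatments share the same untreated libraries, so their results are not independent of each other, and they are given side by side. Where treated and untreated libraries are said not to overlap, 2 libraries against 2 can lie apart by chance. The share of all genes that did so was not counted. All p-values rest on 2 libraries per treatment, with the spread estimated jointly over the 8 libraries. They measure the spread left between libraries after the replicate block, which may be technical. In these sums over a library, more cells of a state and more RNA per cell cannot be told apart, so the same test was run within each state. Primed cells were 2.26% and 4.47% of the untreated libraries r1 and r2, 29.1% and 31.3% with TGFB1, 2.26% and 4.32% with TGFBRi and 0.647% and 1.21% with PI3Ki.

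TGFB1 raised 4 of the 5 members tested over all cells, beside 16.3% of 18389 genes called higher. MT2A stood at 1398 and 1184 CPM in untreated r1 and r2, and at 2861 and 2885 CPM with TGFB1. The fold was 2.20 (log2 change 1.14 ± 0.0954 SE, edgeR adjusted p = 3.28e-09). Both TGFB1 libraries lay above both untreated ones. MT1X went from 82.7 and 73.6 CPM to 145 and 148 CPM (0.89 ± 0.0683, edgeR adjusted p = 7.16e-10), and MT1F from 5.84 and 6.79 CPM to 17.7 and 19.2 CPM (1.54 ± 0.0852, edgeR adjusted p = 3.22e-12). The groups did not overlap for either gene. MT1E rested on 8 and 17 UMIs untreated and 16 and 55 UMIs with TGFB1 (1.39 ± 0.330, edgeR adjusted p = 0.00248), and this call was lost with DESeq2 (adjusted p = 0.126), without the replicate block (0.108), without untreated r2 (0.182) and without TGFB1 r2 (0.207). MT1M was tested and not called, and MT1G was too low to be tested.

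Primed cells held most of the MT2A RNA of the TGFB1 libraries, with 58.2% and 64.3% of the MT2A UMIs in r1 and r2, against 6.15% and 13.3% untreated. Inside the drug-susceptible cells TGFB1 raised 2 of 5 members, beside 8.56% of 17914 genes called higher. MT1F went from 5.47 and 6.06 CPM to 9.80 and 8.66 CPM (0.67 ± 0.109, edgeR adjusted p = 9.31e-05). MT2A went from 1335 and 1059 CPM to 1597 and 1397 CPM (0.31 ± 0.0964, edgeR adjusted p = 0.0297), and this call was lost with DESeq2 (adjusted p = 0.277), without the block (0.174), without untreated r2 (0.589) and without TGFB1 r1 (0.459). MT1X was at 81.1 and 69.0 CPM untreated and 88.4 and 73.8 CPM with TGFB1 (0.10 ± 0.0756, edgeR adjusted p = 0.449). The state was made up of different clusters in the treatments. Cluster 3 held 2182 of 3842 and 1619 of 3858 drug-susceptible cells with TGFB1 against 56 of 4058 and 59 of 3527 untreated, and cluster 0 held 3.10% and 2.98% of them with TGFB1 against 44.3% and 33.3% untreated. In the TGFB1 libraries cluster 3 had 1509 and 1520 CPM of MT2A and 11.1 and 11.2 CPM of MT1F. In cluster 0, MT2A was at 1718 and 1449 CPM with TGFB1 (119 and 115 cells) and at 1222 and 946 CPM untreated. Cluster 3 is not set against its own untreated cells here. Cluster 0 therefore does not show the direction in the cluster that held the most drug-susceptible cells with TGFB1. These values within clusters were not tested.

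In primed cells 3 members could be tested and TGFB1 raised all 3, beside 6.21% of 10930 genes called higher. MT2A went from 5006 and 5083 CPM to 6621 and 7040 CPM (0.51 ± 0.144, edgeR adjusted p = 0.0105). MT1X went from 174 and 217 CPM to 313 and 355 CPM (0.87 ± 0.133, edgeR adjusted p = 3.76e-06), and MT1F from 26.8 and 29.8 CPM to 41.3 and 48.7 CPM (0.76 ± 0.169, edgeR adjusted p = 0.000974). The untreated and TGFB1 libraries did not overlap for any of the 3. With DESeq2 the calls of MT2A (adjusted p = 0.104) and MT1F (0.0649) were lost, and without the block that of MT2A (0.0592). Without untreated r2 the adjusted p was 0.516 for MT2A and 0.177 for MT1F, and without TGFB1 r1 it was 0.609 and 0.0700. Untreated libraries had 94 and 165 primed cells and TGFB1 libraries 1577 and 1757. Primed cells of these treatments also lay in different clusters, with 98.2% and 97.1% of them in cluster 4 with TGFB1 and 94.7% and 96.4% in cluster 10 untreated. Within cluster 10 MT2A was lower with TGFB1, at 3798 and 3677 CPM in the 29 and 51 TGFB1 cells against 5110 and 5104 CPM in the 89 and 159 untreated cells. MT1X in cluster 10 was at 104 and 109 CPM with TGFB1 and at 180 and 221 CPM untreated, again without overlap. Within cluster 4 both genes were higher with TGFB1, MT2A at 6672 and 7135 CPM against 3706 and 4560 CPM and MT1X at 317 and 362 CPM against 90.4 and 137 CPM, where the untreated levels rest on 5 and 6 cells. The clusters thus differed in direction. These values within clusters, which the same RNA counts defined, were not tested, and the TGFB1 differences over primed cells cannot be told apart from the change of cluster. The difference between the responses of the states was not tested.

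**Figure D3:**
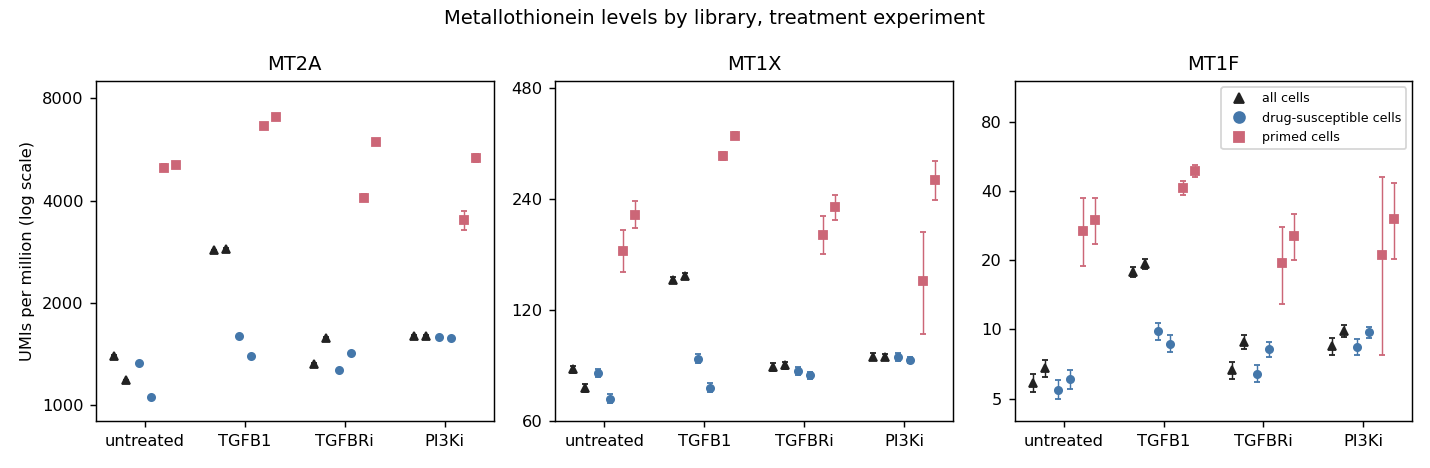
Level of MT2A, MT1X and MT1F in CPM (vertical axes, log scale) in each of the 8 libraries of the treatment experiment, r1 left and r2 right within a pair, over all cells (triangles), drug-susceptible cells (circles) and primed cells (squares). Bars are 95% counting intervals, which for MT1F are widest in the 25 primed cells of PI3Ki r1. Over all cells the TGFB1 libraries had 2861 and 2885 CPM of MT2A, above all others.

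With PI3Ki, whose libraries held the smallest shares of primed cells, MT2A, MT1X and MT1F rose over all cells, 3 of 5 members beside 5.83% of genes called higher. MT2A was at 1601 and 1603 CPM, above 1398 and 1184 CPM untreated (1.33-fold, log2 change 0.41 ± 0.0945, edgeR adjusted p = 0.00515). MT1X was at 89.7 and 89.3 CPM (0.30 ± 0.0682, edgeR adjusted p = 0.00507), and MT1F at 8.43 and 9.85 CPM (0.64 ± 0.0883, edgeR adjusted p = 3.53e-05). No PI3Ki library overlapped an untreated one. The call of MT2A was lost with DESeq2 (adjusted p = 0.0608) and without the block (0.0650), and that of MT1X without the block (0.0597). Without untreated r2 the changes were 0.24 for MT2A (adjusted p = 0.374) and 0.19 for MT1X (0.336), and without PI3Ki r2 the adjusted p was 0.0795 and 0.198.

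Within drug-susceptible cells PI3Ki raised 3 of 5 members, beside 5.89% of genes called higher. MT2A was at 1593 and 1573 CPM against 1335 and 1059 CPM (0.51 ± 0.0966, edgeR adjusted p = 0.00101). MT1X was at 89.4 and 87.9 CPM (0.34 ± 0.0751, edgeR adjusted p = 0.00327) and MT1F at 8.38 and 9.69 CPM (0.75 ± 0.105, edgeR adjusted p = 3.29e-05). The calls of MT2A (adjusted p = 0.133) and MT1X (0.154) were lost without untreated r2, and that of MT1X also without PI3Ki r2 (0.241) and without the block (0.122). With PI3Ki too the state was made up of other clusters. Cluster 6 held 28.8% and 19.9% of drug-susceptible cells against 3.18% and 1.11% untreated, and cluster 0 held 22.9% and 17.4% against 44.3% and 33.3%. MT2A was higher with PI3Ki inside both, at 1072 and 1043 CPM against 730 and 497 CPM in cluster 6 (129 and 39 untreated cells) and at 1596 and 1590 CPM against 1222 and 946 CPM in cluster 0, values that were not tested. In primed cells none of the 3 members was called, beside 1.78% of genes called in either direction, and 25 and 70 primed cells were left. MT2A was at 3504 and 5341 CPM there, with a log2 change of -0.27, and MT1X and MT1F at 0.11 and -0.11.

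With TGFBRi none of the 5 members was called by edgeR over all cells or in drug-susceptible cells, beside 2.53% and 2.81% of genes called in either direction. MT2A was at 1324 and 1583 CPM over all cells (log2 change 0.19, edgeR adjusted p = 0.423), overlapping the untreated 1398 and 1184 CPM. MT1X was at 84.0 and 84.8 CPM (0.13, edgeR adjusted p = 0.453) and MT1F at 6.65 and 8.80 CPM (0.30, edgeR adjusted p = 0.0823). At an unadjusted p under 0.05, 1 member passed over all cells and 1 in drug-susceptible cells, and DESeq2 called 0 in both. Without TGFBRi r1, MT2A was called over all cells (0.36, adjusted p = 0.0341) and in drug-susceptible cells (0.37, adjusted p = 0.0175), as was MT1F (0.41, adjusted p = 0.0114, and 0.49, adjusted p = 0.00594). MT1F in drug-susceptible cells was also called without TGFB1 r1 (adjusted p = 0.0372) or TGFB1 r2 (0.0357). In primed cells none of 3 was called either, beside 0.375% of genes, with 0 at an unadjusted p under 0.05 and 0 with DESeq2. For PI3Ki in primed cells these counts were 0 and 0.

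**Figure D4:**
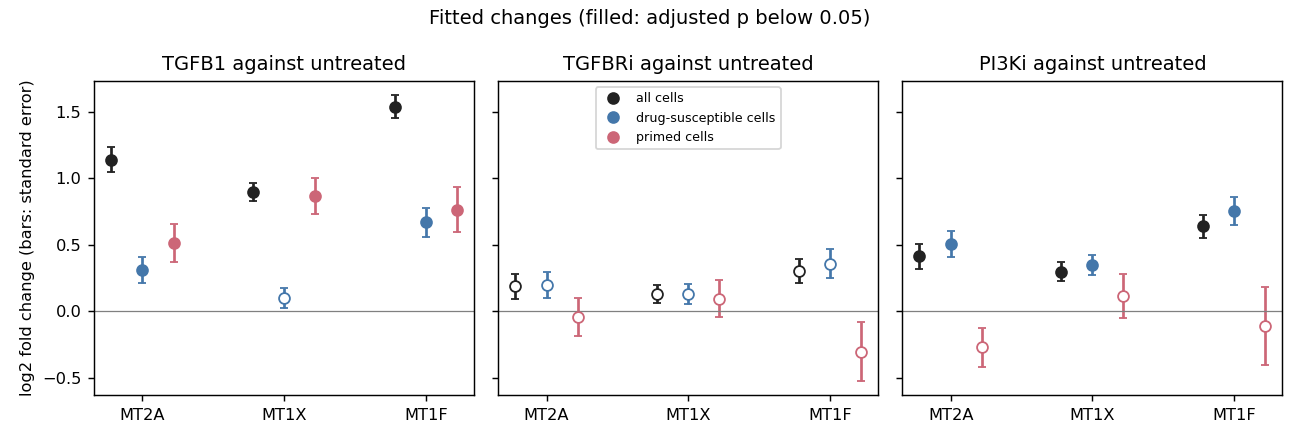
Fitted log2 fold change against untreated cells (vertical axis) of MT2A, MT1X and MT1F for TGFB1, TGFBRi and PI3Ki over all cells and within the states, with bars of 1 SE. Filled points passed an edgeR adjusted p of 0.05. TGFB1 over all cells ran from 0.89 to 1.54, PI3Ki from 0.30 to 0.64, and none of the TGFBRi points was filled.

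The genes that regulate zinc, copper and stress responses were described by the same test over all cells. MTF1, the metal-sensing factor that drives metallothionein genes, had log2 changes of 0.07 with TGFB1, 0.06 with TGFBRi and 0.04 with PI3Ki, none called. SLC30A1, a zinc exporter that MTF1 also drives, stood at 2.27 and 2.18 CPM untreated and rose with TGFB1 to 3.65 and 3.81 CPM (0.73 ± 0.114, edgeR adjusted p = 2.83e-05) and with PI3Ki (0.43, edgeR adjusted p = 0.0171). With TGFBRi its change was 0.00. In drug-susceptible cells TGFB1 raised it by 0.80 (edgeR adjusted p = 3.59e-05).

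With TGFB1, 4 of 21 zinc genes tested rose and 2 fell, beside 16.3% of all genes called higher and 12.7% called lower. The median of the zinc genes was 0.07, beside a median of 0.01 over all genes tested. SLC39A11 fell by 0.92, while SLC39A13 (0.60) and SLC39A7 (0.38), which move zinc out of internal stores, rose. Of 10 copper genes 2 rose and 3 fell, with ATP7A, a copper exporter, at 0.68 and SLC31A1, the copper importer, at -0.44. Of 8 genes of metal and proteotoxic stress GCLM (1.09, edgeR adjusted p = 9.31e-12), and the chaperone gene HSPA1A (0.30) rose. Of 7 glucocorticoid targets 3 rose, led by TSC22D3 (1.22), and 2 fell, among them SGK1, which fell by 0.64. All 7 genes of the STAT3 list rose over all cells, with JUNB (1.22) the most, and their median was 0.72, while DESeq2 called 5. In drug-susceptible cells none of these 7 was called with edgeR, and their median was 0.14, with 3 at an unadjusted p under 0.05 and 0 called with DESeq2.

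With PI3Ki, 4 of 8 stress genes rose, beside 5.83% of all genes called higher. They were HMOX1 (0.62, edgeR adjusted p = 1.13e-06), GCLM (0.28), HSPA1A (0.22) and TXNRD1 (0.21). Of 21 zinc genes 1 rose and 2 fell, beside 6.83% of all genes called lower, and of 10 copper genes CCS, which loads copper onto superoxide dismutase, rose (0.24, edgeR adjusted p = 0.0300). DESeq2 called 3 of the stress, 1 of the zinc and 0 of the copper genes. Of 7 glucocorticoid targets SGK1 rose (0.41) and 3 fell, and of 7 STAT3 genes OSMR, BCL3 and IL6ST fell. With TGFBRi, beside 2.53% of genes called, edgeR called ATP7B, a copper exporter, lower (-0.40, adjusted p = 0.0478) and SOCS3 lower (-0.52, adjusted p = 0.0165), while DESeq2 called 0 genes of the copper and STAT3 lists, and in drug-susceptible cells edgeR called SOCS3 (-0.53, adjusted p = 0.0172) and LIF (-0.60, adjusted p = 0.0189) lower, KLF9 higher (0.27, adjusted p = 0.0391) and 0 copper genes, none of them called by DESeq2. Among the other metallothioneins MT3 had 5 and 11 UMIs untreated, 28 and 15 with TGFB1, 5 and 6 with TGFBRi and 1 and 2 with PI3Ki. It was the 1 gene of that list tested over all cells. With TGFB1 edgeR called it higher (log2 change 1.34), beside 16.3% of all genes, and DESeq2 did not. With PI3Ki its change was -2.46, at an unadjusted edgeR p under 0.05 and not called. On so few UMIs no difference is drawn from these counts.

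Accessibility at the members' starts was read from the ATAC peaks, whose height is the authors' fold enrichment over local background. A peak summit lay between 250 bases before and 50 bases after the start of MT2A in 12 of 12 libraries, of MT1X in 12 and of MT1F in 11. MT1E, MT1M and MT1G had no summit there in any library, and none within 2000 bases. MT2A, MT1X and MT1F were also the 3 members with the highest RNA levels in WM989. In Mix 3 the MT1F summit lay 73 bases after the start, outside this window. Whether reads shared between paralogs were lost from the peaks was not tested. In data simulated for EGFR-high against Mix, 100 of 113823 regions were changed by 2-fold and 100 by 0.5 in log2. The limma test found 6 and 0 of them. In the real data 5348 to 9659 regions were called for a sort, so the simulation held fewer changes and its recovery need not apply there. A difference that was not called is still not shown to be absent. The deposited lists hold only called peaks, so that weaker signal cannot be seen in them.

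**Figure D5:**
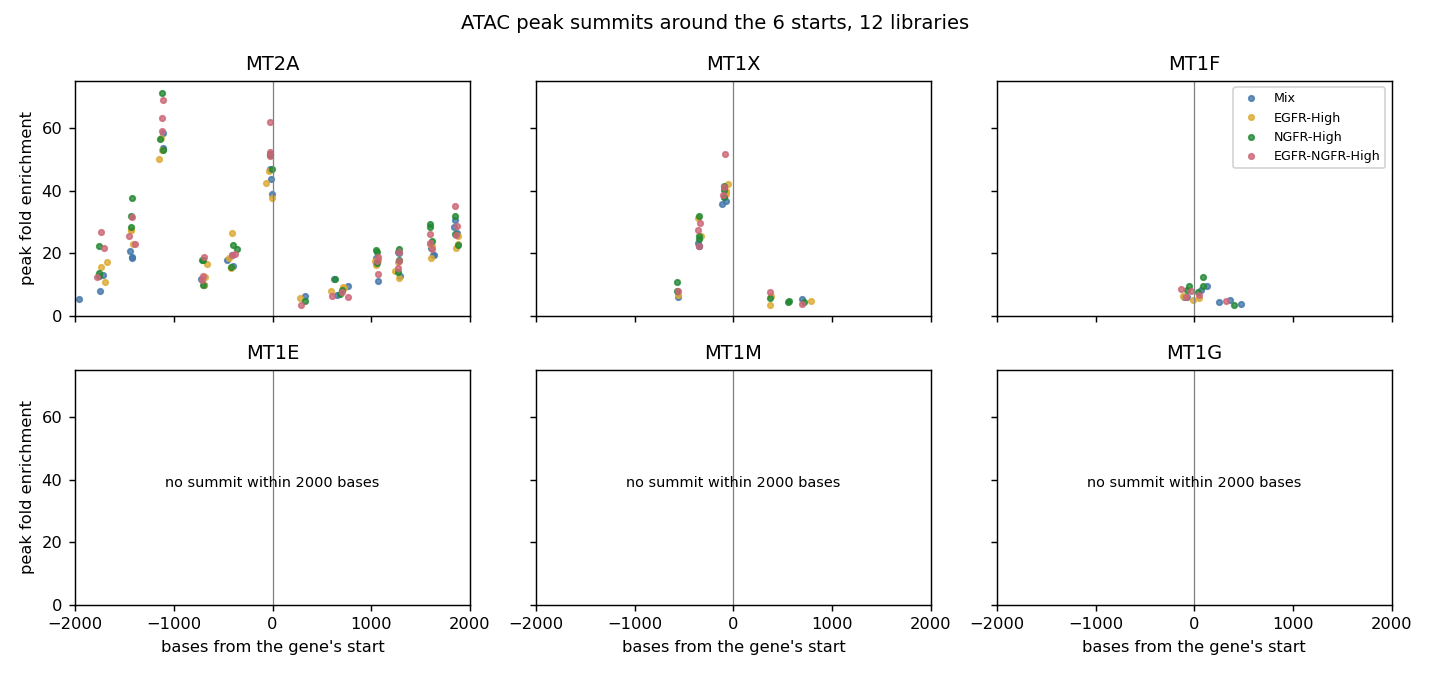
Fold enrichment of each peak summit (vertical axes) by distance in bases from the gene's start along the direction of transcription (horizontal axes) for the 6 members in 12 ATAC libraries, coloured by sort. MT2A had peaks on both sides of its start, MT1X and MT1F had peaks close to theirs, and MT1E, MT1M and MT1G had none.

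At the start of MT2A the 4 sorts overlapped in part. The region chr16:56608416-56608683 had fold enrichments of 46.1, 42.6 and 37.7 in EGFR-high, 46.9, 51.6 and 51.2 in NGFR-high, 61.9, 52.5 and 51.1 in EGFR/NGFR-high and 39.0, 43.8 and 47.0 in Mix. The log2 differences from Mix, -0.04, 0.21 and 0.35 in that order, were not called by limma over 113823 regions (adjusted p = 0.931, 0.490 and 0.240). The 95% interval of the EGFR/NGFR-high difference ran from 0.997-fold to 1.63-fold. The region reached the 90.2 to 96.0 percentile of fold enrichment in each library, so that the start was strongly accessible in Mix as well. At the start of MT1X, chr16:56682251-56682511, fold enrichment was 38.8, 39.7 and 42.1 in EGFR-high, 40.2, 38.1 and 41.4 in NGFR-high, 51.8, 41.1 and 38.7 in EGFR/NGFR-high and 38.1, 36.8 and 35.8 in Mix. None of the differences from Mix (0.12, 0.11 and 0.24) was called. At MT1F, chr16:56657494-56658308, fold enrichment was low, with means of 5.53 ± 0.626, 9.72 ± 2.46, 7.50 ± 1.36 and 7.92 ± 1.66 (SD, n = 3) in the same order of sorts, and no difference was called.

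Upstream of MT2A, 1 of the 27 comparisons of 9 regions within 2000 bases of a member's start was called. It was NGFR-high against Mix at chr16:56607028-56607293, whose centre lies 1424 bases before the MT2A start. Fold enrichment was 37.8, 31.9 and 28.2 in NGFR-high and 18.8, 20.7 and 18.4 in Mix (log2 difference 0.75 ± 0.182 SE, limma adjusted p = 0.0165, beside 8.49% of all regions called). EGFR-high, with a mean of 25.9 ± 2.52 (SD, n = 3), and EGFR/NGFR-high, with 26.6 ± 4.46, also lay above Mix and were not called (0.42 and 0.45, limma adjusted p = 0.196 and 0.149, beside 4.70% and 8.25% of regions). The call was lost when regions with a peak in at least 3 libraries were used (adjusted p = 0.0511) and without Mix 1 (0.0523), Mix 3 (0.0557) or NGFR-high 1 (0.103). The neighbouring region chr16:56607337-56607575, with a median fold enrichment of 56.6, had differences of -0.05, 0.12 and 0.21, none called. The sequence of the called region is shown from the plus strand of hg38, since it carried the one accessibility call near a member.

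MT2A region at -1424: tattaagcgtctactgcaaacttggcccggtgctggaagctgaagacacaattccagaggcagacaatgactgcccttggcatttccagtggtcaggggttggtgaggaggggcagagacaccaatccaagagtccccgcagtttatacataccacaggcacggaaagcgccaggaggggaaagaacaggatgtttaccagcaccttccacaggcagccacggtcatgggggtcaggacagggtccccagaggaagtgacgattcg

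It held no match to the metal response cores or the AP-1 motif on either strand. Of windows of 266 bases centred on all tested regions, 13.4% held TGCACNC, 8.37% TGCGCNC and 10.7% the AP-1 motif. TATAAA matched 1 time on the minus strand, as in 12.3% of those windows. The ATAC sorts were made on EGFR and NGFR, while the states of the RNA cells came from clusters, so levels and peaks were not measured on the same groups.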

How the data were processed

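The authors deposited counts of UMIs for each gene in each cell from Cell Ranger (hg38, version not given in the sources used here), with cells already filtered in Seurat. Their metadata gave state, cluster, phase, well or condition and replicate. These were used as they stand, except that any state label nres was read as drug-susceptible. No doublet caller was run here. The ATAC-seq peak lists deposited by the authors were made per library, aligned with Bowtie2 2.3.4.1, processed with SAMtools 1.1 and called with MACS2 2.1.1.20160309, per the labels' processing notes. Their fold enrichment is a ratio over local background, and the deposited −log10 q-value was used for a stricter peak set.

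Counts were summed and scaled to CPM with exact Poisson intervals at 95%. Treatment sums were compared by edgeR 4.0.16 (R 4.3.3, filterByExpr, TMM, quasi-likelihood, two-sided, Benjamini-Hochberg adjustment over all genes tested, threshold 0.05), with primed cells tested where a library held at least 20. Cells grown in 1 well were divided among the 4 treatment plates, and r2 minus r1 correlated between treatments across genes (0.256 to 0.365 over all cells, 0.247 to 0.358 in drug-susceptible and 0.0251 to 0.146 in primed cells), so replicate was a block. For accessibility, windows of 201 bases on summits were merged, and 113823 regions with a peak in all 12 libraries were tested with limma 3.58.1 on log2 fold enrichment. Libraries held 213412 to 271153 summits. The tests were tested on simulated data. Python 3.11.15 with numpy 2.4.6, pandas 2.3.3, scipy 1.17.1 and matplotlib 3.10.9 was used, and DESeq2 1.42.0 was an alternative, beside other scalings, filters and libraries left out.

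Gene positions came from the GENCODE annotation of hg38, promoters from RefSeq and the upstream region from the hg38 genome. The members, gene lists and rules were chosen with earlier results of these data known. The genes named were the 6 members, MTF1 and SLC30A1, up to 4 genes of each list with the smallest adjusted p over all cells, and the 5 genes closest to MT2A over clusters. Other genes named in the account of the states were chosen after their values were seen.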

Additional observations from a re-analysis of the deposited data

Results flagged for a closer look

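MT1F with TGFBRi had opposite directions in the states, in both replicates. The ratio of TGFBRi to untreated cells was 1.17 in r1 and 1.35 in r2 in drug-susceptible cells, and 0.720 and 0.854 in primed cells, with a mean of 0.787 over the primed pair. It was flagged because every library pair of one state moved up and every pair of the other moved down. MT2A, MT1X and MT1F were each screened for this pattern with every treatment, so that a case can arise by chance. The primed levels rested on 36 and 74 MT1F UMIs untreated and 29 and 77 with TGFBRi, and their 95% counting intervals overlapped in both replicates (18.8 to 37.1 against 12.9 to 27.8 CPM in r1, 23.4 to 37.4 against 20.1 to 31.8 CPM in r2). The difference between the states was not tested, MT1F was called in neither state, and the TGFBRi libraries held 118 and 271 primed cells.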

How the results depend on the processing

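The MT2A ratio in the first experiment was 8.63 within r1 and 12.4 within r2 against 11.4 over all cells, 9.52 with wells weighted equally, 10.1 after thinning and 11.4 in cells with a lineage barcode count above 0. Without cluster 3 the WM983B ratio was 2.49.

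Without the replicate block, the count of genes called fell to 40 for TGFBRi and 649 for PI3Ki over all cells (466 and 2328 with it), to 1189, 47 and 570 for TGFB1, TGFBRi and PI3Ki in drug-susceptible cells (2665, 503 and 2170), and to 9 and 87 for TGFBRi and PI3Ki in primed cells (41 and 195). It also ended the calls of MT2A and MT1X given with the results and that of MT1X with PI3Ki in drug-susceptible cells (adjusted p = 0.122). The study does not say that ATAC libraries of the same number share a culture, and the numbers were not taken as pairs. Their correlations ran from -0.0244 to 0.177, and 11 of 12 libraries correlated best with their own number. A part shared within a number is therefore not excluded. With the numbers as a replicate block, 7070, 11768 and 11217 regions were called for EGFR-high, NGFR-high and EGFR/NGFR-high (5348, 9659 and 9390 without).

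With DESeq2 the counts were 1750, 317 and 1423 in drug-susceptible cells and 606 and 17 for TGFB1 and TGFBRi in primed cells (1454 and 41). Without a filter TGFBRi called 748 genes over all cells, MT1F among them (adjusted p = 0.0320; 0.0260 with equal cell numbers). With −log10 q of at least 10, 6149 regions were called for EGFR/NGFR-high. The cause of these moves was not tested.

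Leaving out 1 library, with a lone sample assumed to vary like the others, gave 3164 to 6377, 168 to 1146 and 719 to 3298 genes for TGFB1, TGFBRi and PI3Ki over all cells. The counts were 988 to 3722, 206 to 1247 and 632 to 3286 in drug-susceptible cells, and 584 to 1726, 17 to 63 and 96 to 239 in primed cells. For the ATAC sorts in the order above they were 1168 to 5610, 3561 to 10183 and 5331 to 9578 regions.

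Directions reversed only for values that were not called. MT1X with TGFB1 in drug-susceptible cells was -0.017 without TGFB1 r1, at the low end of a range of -0.017 to 0.20 when 1 library was left out. In primed cells MT2A with TGFBRi was 0.19 without untreated r1 and 0.14 without TGFBRi r1 (range -0.27 to 0.19), and MT1X with PI3Ki was -0.43 without PI3Ki r2 (range -0.43 to 0.32). For EGFR-high, the MT2A start and upstream regions were 0.065 and 0.050 after quantile normalization, and the start was 0.038 without EGFR-high 3 and 0.022 without Mix 3 (range -0.11 to 0.038). The upstream region for NGFR-high was -0.010 without NGFR-high 1 (range -0.010 to 0.20), and MT1F for EGFR/NGFR-high was 0.084 without its library 3 and 0.062 without Mix 1 (range -0.25 to 0.084). MT1E, MT1M and MT1G had too few UMIs to be tested in primed cells, as had MT1G over all cells.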
